A study of Mus musculus with 6 samples.

Results

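The Hox genes of the mouse encode homeodomain transcription factors that set the identity of body segments along the head to tail axis, and they lie in 4 clusters named Hoxa, Hoxb, Hoxc and Hoxd. The members described here are the protein-coding genes of the GENCODE M39 annotation named Hox with a cluster letter and a position number. This rule found 39 of 21757 protein-coding genes on the autosomes, X and Y, of which 11 were in Hoxa, 10 in Hoxb, 9 in Hoxc and 9 in Hoxd. Accessible intervals within 1 kb of any transcription start site (TSS) of a Hox gene, or in its body, were taken as its own, which gave 94 distinct intervals among 279569 in the genome.

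Within a cluster all genes point the same way and are numbered in order, and genes of the same number in different clusters are paralogs that arose by duplication of an ancestral cluster. Low-numbered (anterior) genes are switched on earlier and nearer the head than high-numbered (posterior) genes, a property known as collinearity. Polycomb complexes hold unused parts of the clusters silent and trithorax complexes oppose them, so a tissue tends to carry an open stretch of the cluster that reflects its place along the axis. In the kidney, which forms from intermediate mesoderm of the trunk, paralogs of position 11 are required for the ureteric bud to form, and the Hoxb7 promoter is widely used to drive transgenes in the ureteric bud and collecting duct.

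The values come from ATAC-seq, which marks open chromatin through insertion of adapters by Tn5 transposase, of nuclei from kidney cortex. The labels give 3 WT libraries and 3 libraries from mice with a tubule-specific Acly knockout (Acly cKO), all with the treatment label Control and with no age. According to the methods, Ksp-Cre (Cdh16-Cre) was crossed to Acly fl/fl to delete Acly in tubular epithelium, littermates with Acly fl/fl and no Cre served as controls, and other kidney cells were not targeted. The methods also name WT libraries from an earlier dataset, and which libraries entered the peak call is not given in the sources used here. The authors called peaks once, on pooled libraries, so no value below belongs to WT or Acly cKO kidneys, no genotypes were compared and no value carries a replicate error. The labelled WT libraries carry batch labels 1 and 2 and the Acly cKO libraries 4 and 5, so genotype and batch cannot be told apart, and the depth of each library is unknown.

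Each interval is described by the fold enrichment of its highest summit over the background and by its −log10 q, both as the authors' caller wrote them. The fold enrichment grows with the number of insertions at the summit and is not scaled per cell. It takes discrete steps, and the 894 summits within the 4 clusters took 186 distinct values, so equal values at different genes do not mean a shared interval. The call keeps summits with q under 0.05, and intervals with several summits can be long. In bulk tissue, accessibility in few cells and weak accessibility in many cells cannot be told apart. Markers of the proximal tubule (Lrp2, Cubn, Slc34a1 and Slc5a2) had strongest intervals of 7.40 to 33.1-fold, and 6 markers of the thick ascending limb, distal tubule and collecting duct had 7.46 to 38.2-fold. The range was 3.54 to 17.4-fold for 3 podocyte markers, 4.45 to 14.8-fold for 3 endothelial markers, 2.62 to 10.9-fold for 3 stromal markers and 6.48 to 31.2-fold for 3 immune markers. By the same measure 4 markers of other organs (Alb, Myh6, Gfap and Ins2) had 3.40 to 21.0-fold, a range that overlapped those of the kidney markers. Near the canonical TSS they had at most 3.40-fold and the proximal tubule markers had 7.40 to 33.1-fold. There the other tubule markers had at least 4.19-fold. The podocyte markers had 3.14 to 17.4-fold, the endothelial 2.03 to 4.12-fold, the stromal 2.62 to 10.9-fold and the immune 0 to 11.2-fold, so low TSS values were not confined to other organs. The part of any single cell type in the Hox values was not tested.

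All 39 Hox genes had at least 1 interval, and all 39 had one within 1 kb of a TSS. Among all protein-coding genes 82.2% had an interval and 77.9% had one within 1 kb of a TSS. The strongest interval reached 5-fold at 34 Hox genes, where 73.9% of all protein-coding genes did. It reached 10-fold at 27 of 39 Hox genes (69.2%), close to the 66.4% of all protein-coding genes, and 20-fold at 14 Hox genes (35.9%), below the 54.7% of all protein-coding genes. Hox genes thus had intervals more often than other genes but few very strong ones. The median strongest interval was 18.0-fold over the Hox genes and 23.8-fold over all protein-coding genes, with genes that lacked an interval counted as 0. No Hox gene passed the 31.9-fold of Hoxc5 and Hoxc6, a value below which 60.2% of all protein-coding genes lay.

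The 10 intervals with the highest fold enrichment at Hox genes lay in all 4 clusters, and 9 of them are described. The highest was chr15:102905848-102912054 in Hoxc, 6207 bp long with 15 summits, with 31.9-fold enrichment and a −log10 q of 542. Its highest summit lay between Hoxc8 and the canonical start of Hoxc6, 8955 bp downstream of the Hoxc8 TSS and 1117 bp from the nearest alternative start of Hoxc6. The next, chr6:52187974-52200145 in Hoxa, was 12172 bp long with 29 summits, 31.9-fold and a −log10 q of 540, and its highest summit lay 41 bp from an upstream start of Hoxa7. Another, chr11:96172810-96192226, was 19417 bp long with 53 summits, took in Hoxb6, Hoxb7 and Hoxb8, and peaked at 25.6-fold (−log10 q 397) at 1085 bp upstream of the Hoxb7 TSS. These 3 summits were at no coding exon. The 81 bases around each are given on the plus strand of GRCm39, with CpG dinucleotides in capitals.
Hoxc8 to Hoxc6 summit, chr15:102907766-102907846: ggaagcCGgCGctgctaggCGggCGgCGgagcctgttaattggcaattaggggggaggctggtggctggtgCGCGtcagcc
Hoxa7 upstream start, chr6:52198835-52198915: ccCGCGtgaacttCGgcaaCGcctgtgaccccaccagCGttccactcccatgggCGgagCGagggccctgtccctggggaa
Hoxb7 upstream summit, chr11:96176324-96176404: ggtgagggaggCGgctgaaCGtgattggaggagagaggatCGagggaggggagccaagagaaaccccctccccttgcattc
The first pair each held 7 CpG dinucleotides and 69.1% G and C. The Hoxb7 window held 3 CpG dinucleotides, with 61.7% G and C.

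The other 6 had lower values. At Hoxd10, chr2:74521377-74524794 was 3418 bp long with 9 summits, reached 24.8-fold (−log10 q 380) and peaked 81 bp upstream of the TSS. At Hoxb8 and Hoxb9, chr11:96159003-96172642 was 13640 bp long with 37 summits, reached 24.7-fold (−log10 q 377) and peaked 562 bp inside Hoxb9, in its coding exon. At Hoxd8, chr2:74533456-74537335 was 3880 bp long with 8 summits, reached 24.5-fold (−log10 q 373) and peaked 248 bp inside the gene. The body of Hoxa3 held chr6:52146817-52150690, 3874 bp long with 8 summits, at 23.9-fold (−log10 q 360), and chr6:52151826-52164548, 12723 bp long with 35 summits, at 20.6-fold (−log10 q 292). The body of Hoxd3 held chr2:74537926-74547204, 9279 bp long with 22 summits, at 21.5-fold (−log10 q 309), 4053 bp downstream of its canonical TSS. These sites were therefore spread between the stretch from Hoxc8 to Hoxc6, promoters of positions 7 to 10 and the long bodies of the position 3 genes.

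Intervals at Hox genes were long. Their median width was 1688 bp, against 434 bp for all intervals, and 7 of the 94 (7.45%) were at least 10000 bp, against 0.336% of all intervals. They held 806 summits, with a median of 5.00 summits per interval against 1.00 for all intervals, and a single summit was called in 24.5% of them against 53.4% of all intervals. Their median fold enrichment was 3.99 against 2.55 over all intervals. All intervals include those away from genes. Intervals at other protein-coding genes were not described apart, so these differences are not shown to be particular to Hox genes. Because the Hox genes lie close together, 31 of the 94 intervals counted for more than 1 Hox gene. For the same reason, 14 Hox genes shared their strongest interval with another.

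From end to end of the canonical Hox transcripts, intervals covered 76.8% of the Hoxa cluster (chr6:52132570-52237822), 60.9% of Hoxb (chr11:96085106-96259082), 49.6% of Hoxc (chr15:102829538-102945278) and 65.7% of Hoxd (chr2:74498654-74595486). Across the genome intervals covered 9.47% of assembled bases, and the median 100 kb window was covered to 3.06%. Coverage as high as in Hoxc, the least covered cluster, was found in 2.80% of 27222 windows of 100 kb, and coverage as high as in Hoxa in 0.213%. The covered stretch ended near the clusters at most borders. In the 20 kb beyond the position 13 gene, intervals covered 16.1% at Hoxa, 1.34% at Hoxb and 4.0% at Hoxc, and 36.2% at Hoxd, where Evx2 lies 8.75 kb away. In the 20 kb beyond the lowest-numbered gene, they covered 0.98% at Hoxa, 1.04% at Hoxb, 21.5% at Hoxc and 0% at Hoxd.

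**Figure D1:**
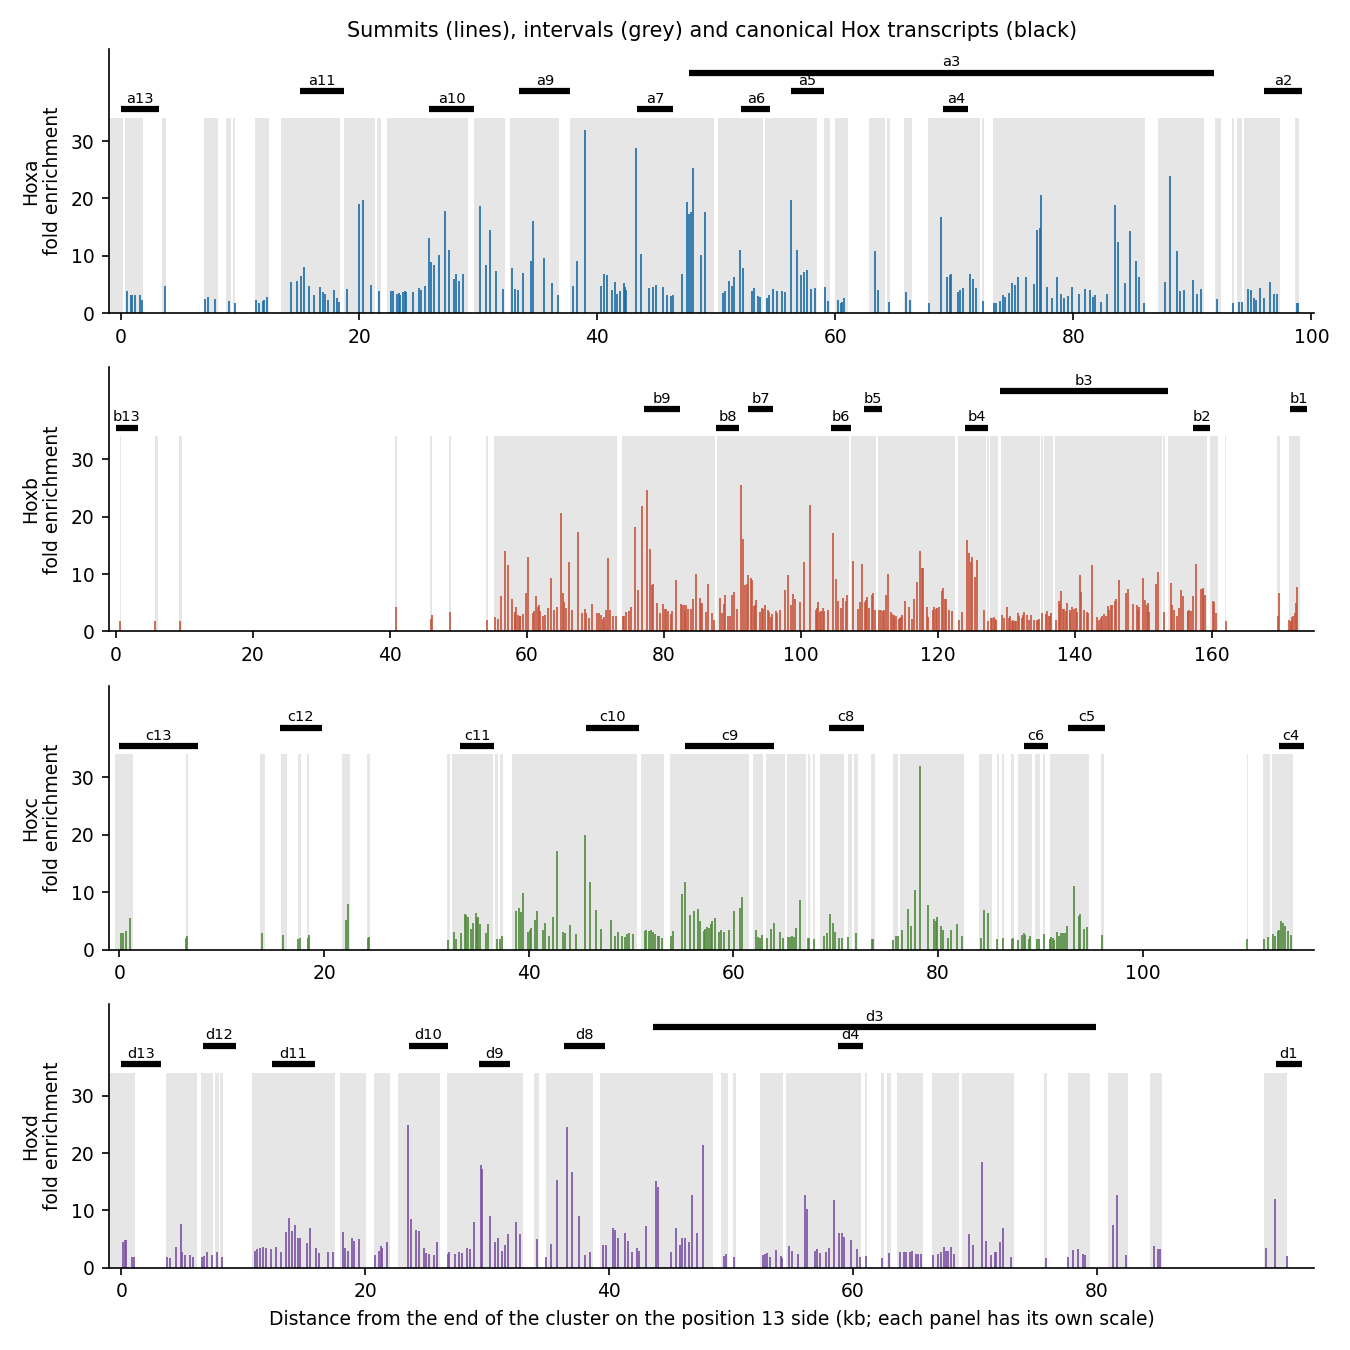
Maps of the 4 clusters, with the end that carries the position 13 gene on the left. Coloured lines are summits with their fold enrichment (y axis), grey bands are intervals and black bars are canonical Hox transcripts, against distance in kb. The Hoxa panel ends at Hoxa2. Summits are sparse toward the position 13 side of Hoxb and Hoxc and toward the position 1 side of Hoxd, and a 31.1 kb stretch of Hoxb has none.

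Accessibility within the clusters was uneven. The longest stretch with no interval was 31.1 kb in Hoxb (chr11:96094784-96125841, between Hoxb13 and Hoxb9), 14 kb in Hoxc (chr15:102925718-102939681, between Hoxc5 and Hoxc4), 8.39 kb in Hoxd (chr2:74583997-74592388, before Hoxd1) and 3.21 kb in Hoxa (chr6:52230841-52234054, between Hoxa13 and Hoxa11). Hoxa had 20.3 summits per 10 kb and 37 summits of at least 10-fold, whereas Hoxc had 16.1 summits per 10 kb and 7 of at least 10-fold. Hoxb held 31 and Hoxd 16 summits of at least 10-fold. Of all 91 such summits, 40 lay within 1 kb of a canonical Hox TSS, 23 elsewhere in a canonical transcript and 28 between genes. Of the 894 summits of any height, 189, 377 and 328 lay in these places. Between genes, Hoxb had 17 summits of at least 10-fold, Hoxa 7, Hoxc 3 and Hoxd 1. Among summits of any height, 146 of 315 lay between genes in Hoxb, 50 of 214 in Hoxa, 84 of 186 in Hoxc and 48 of 179 in Hoxd.

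By cluster, the median strongest interval was 19.7-fold in Hoxa (4.12 to 31.9, n = 11 genes), 15.0-fold in Hoxb (1.77 to 25.6, n = 10), 6.42-fold in Hoxc (2.62 to 31.9, n = 9) and 18.0-fold in Hoxd (4.91 to 24.8, n = 9). When the highest summit of an interval had to lie inside the window or gene body, the Hoxb median was 4.78-fold, below the 6.42-fold of Hoxc. At least 10-fold was reached by 9 Hoxa, 8 Hoxb, 4 Hoxc and 6 Hoxd genes. By position, the median was 13.9-fold at positions 1 to 4 (n = 12 genes), 25.6-fold at positions 5 to 8 (n = 11) and 10.3-fold at positions 9 to 13 (n = 16). At least 20-fold was reached by 4, 7 and 3 genes of these groups. The higher median at positions 5 to 8 depended on the measure. With each interval counted for 1 Hox gene only, which left Hoxb6 and Hoxb8 with none, the medians were 13.9, 12.2 and 8.41-fold. The highest summit within 1 kb of the canonical TSS had medians of 11.9, 11.8 and 7.17-fold in the same groups. On that measure 22 Hox genes (56.4%) reached 10-fold, where 57.2% of all protein-coding genes did, and the median was 11.8-fold over Hox genes and 17.0-fold over all protein-coding genes.

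Gene by gene, the strongest interval in Hoxa was 5.37-fold at Hoxa2, 31.9-fold at Hoxa3, 16.8-fold at Hoxa4, 19.6-fold at Hoxa5, 19.6-fold at Hoxa6, 31.9-fold at Hoxa7, 31.9-fold at Hoxa9, 19.7-fold at Hoxa10, 19.7-fold at Hoxa11 and 4.12-fold at Hoxa13. On this measure Hoxa2 and Hoxa13 were the low ones, and the other genes listed were at or above 16.8-fold. The 31.9-fold of Hoxa3, Hoxa7 and Hoxa9 came from a single interval that peaked at an upstream start of Hoxa7. Hoxa5 shared its interval with Hoxa6, and Hoxa10 with Hoxa11. At the canonical TSS these genes had 25.3-fold (Hoxa3), 28.7-fold (Hoxa7), 9.03-fold (Hoxa9), 19.6-fold (Hoxa5), 10.9-fold (Hoxa6), 13.2-fold (Hoxa10) and 8.12-fold (Hoxa11). In Hoxb it was 7.79-fold at Hoxb1, 11.8-fold at Hoxb2, 11.5-fold at Hoxb3, 15.9-fold at Hoxb4, 14.1-fold at Hoxb5, 25.6-fold at Hoxb6, 25.6-fold at Hoxb7, 25.6-fold at Hoxb8, 24.7-fold at Hoxb9 and 1.77-fold at Hoxb13. The 25.6-fold of Hoxb6, Hoxb7 and Hoxb8 came from a single interval that peaked upstream of Hoxb7, and at its own TSS Hoxb8 had 5.76-fold. In Hoxc it was 4.91-fold at Hoxc4, 31.9-fold at Hoxc5, 31.9-fold at Hoxc6, 6.15-fold at Hoxc8, 11.9-fold at Hoxc9, 19.9-fold at Hoxc10, 6.42-fold at Hoxc11, 2.62-fold at Hoxc12 and 5.43-fold at Hoxc13. Most Hoxc genes were low, and the 31.9-fold of Hoxc5 and Hoxc6 came from a single interval that lay at neither canonical start. In Hoxd it was 12-fold at Hoxd1, 21.5-fold at Hoxd3, 21.5-fold at Hoxd4, 24.5-fold at Hoxd8, 18.0-fold at Hoxd9, 24.8-fold at Hoxd10, 8.71-fold at Hoxd11, 7.73-fold at Hoxd12 and 4.91-fold at Hoxd13, with a step down between Hoxd10 and Hoxd11. Hoxd3 and Hoxd4 took their 21.5-fold from a single interval.

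**Figure D2:**
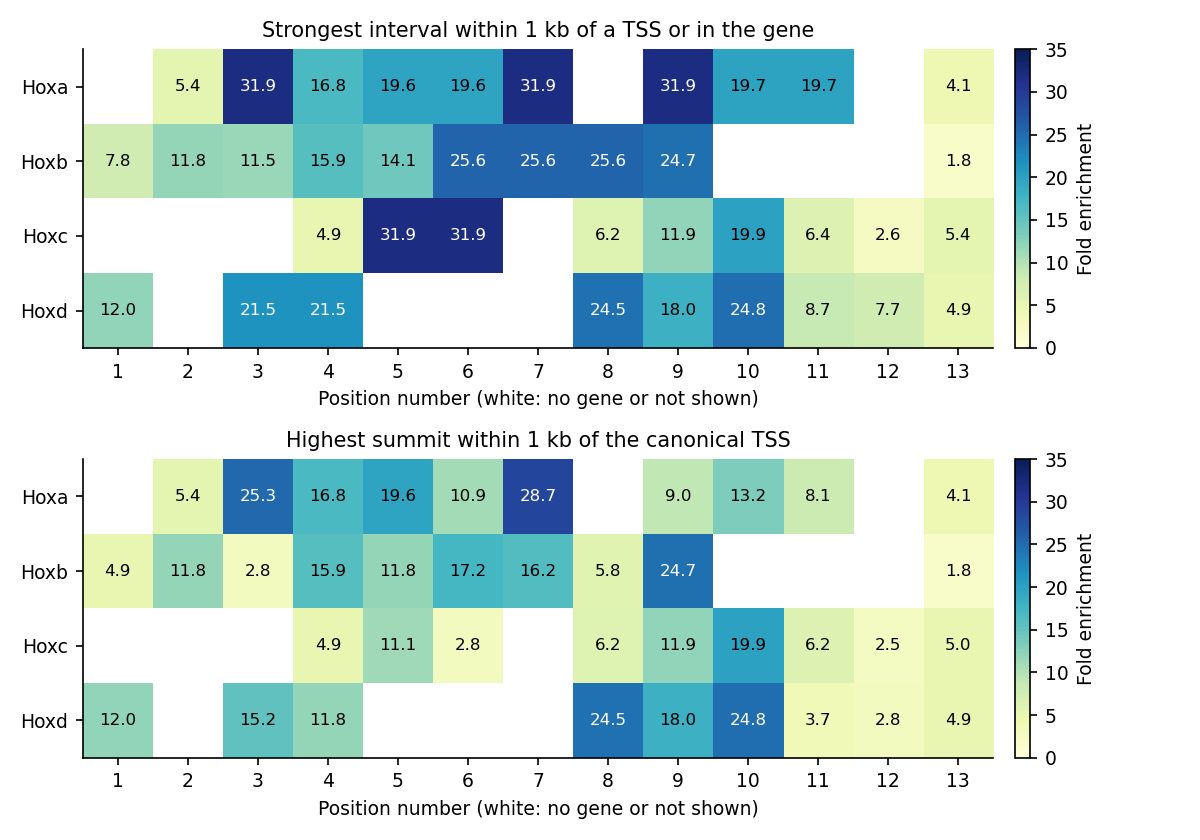
Fold enrichment by cluster (rows) and position number (columns), as the strongest interval of each gene (top) and as the highest summit within 1 kb of its canonical TSS (bottom), with 1 gene not shown. The position 12 and 13 genes lie at or below 7.73-fold in the top panel and at or below 5.04-fold in the bottom panel in every cluster that has them.

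The position 13 genes, which pattern the ends of the body and limbs, were weak in all 4 clusters. Hoxa13, required for digits and for the genital and urinary outlets, had 4.12-fold enrichment (−log10 q 19) in chr6:52237682-52239065, an interval of 1384 bp with 4 summits that peaked 133 bp upstream of its TSS. Hoxb13, known for its role in the prostate, had a single interval of 174 bp with 1 summit, chr11:96085630-96085803, at 1.77-fold and a −log10 q of 1.64, 566 bp inside the gene. This was the lowest value of any Hox gene and lay close to the threshold of the call. Hoxc13, a regulator of hair and nail keratins, had 5.43-fold (−log10 q 33.1) in chr15:102829074-102830836, which peaked 1020 bp downstream of its TSS. Hoxd13, whose mutation fuses digits, had 4.91-fold (−log10 q 27.1) in chr2:74497564-74499737, an interval of 2174 bp with 10 summits that peaked 374 bp inside the gene. Hoxc12 had 2.62-fold (−log10 q 6.34) in chr15:102847853-102848088, 236 bp long with 2 summits and 2832 bp from its TSS, and 2.49-fold near the TSS. Hoxd12 had 7.73-fold from an interval 1850 bp upstream of its TSS, but 2.75-fold near the TSS.

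At position 11, paralogs needed for the onset of kidney formation, the highest TSS summit was 8.12-fold at Hoxa11, 6.22-fold at Hoxc11 and 3.67-fold at Hoxd11. Their strongest intervals were 19.7, 6.42 and 8.71-fold, and that of Hoxa11 was chr6:52216497-52219092, which peaked 5267 bp downstream of the Hoxa11 TSS, beyond its 3′ end, and 236 bp from an upstream start of Hoxa10. All 9 genes of positions 11 to 13 were below 10-fold at the TSS. At positions 9 and 10, 6 of 7 genes were at or above 10-fold at the TSS. Hoxd10 had 24.8-fold, Hoxc10 19.9-fold and Hoxa10 13.2-fold, and Hoxb9 had 24.7-fold, Hoxd9 18.0-fold and Hoxc9 11.9-fold. The exception was Hoxa9, a gene of blood stem cells and leukaemia, with 9.03-fold at 955 bp inside the canonical TSS. A summit of 16.1-fold lay 1162 bp inside the gene, just outside the 1 kb window. The strongest interval within 1 kb of any Hoxa9 start had 18.6-fold. In Hoxc and Hoxd the value at the TSS was 3.2 and 6.77 times as high at position 10 as at position 11, in Hoxa 1.62 times, and Hoxb has no genes of these numbers.

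At positions 5 to 8, genes of the thoracic region, the highest TSS summit was 28.7-fold at Hoxa7, 24.5-fold at Hoxd8, 19.6-fold at Hoxa5, 17.2-fold at Hoxb6 and 16.2-fold at Hoxb7. Hoxb5 had 11.8-fold, Hoxc5 11.1-fold and Hoxa6 10.9-fold. Hoxc8 had 6.15-fold, Hoxb8 5.76-fold and Hoxc6 2.82-fold. Paralogs of the same number thus differed, as at position 8, where Hoxd8 was 3.98 times as high as Hoxc8. Hoxc6 was the Hox gene whose TSS and gene values lay farthest apart, 2.82-fold at the canonical start and 31.9-fold in its strongest interval, a ratio of 11.3.

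Among the anterior genes, Hoxd1 had 12-fold at its TSS and Hoxb1, which patterns the hindbrain, 4.91-fold. Hoxa2, which gives the second pharyngeal arch its identity, had 5.37-fold (−log10 q 32.3) in chr6:52140486-52143452, and Hoxb2 had 11.8-fold. At position 3, Hoxa3, needed for the thymus and parathyroid, had 25.3-fold at the TSS, Hoxd3 had 15.2-fold and Hoxb3 had 2.82-fold. Hoxb3 took 11.5-fold from chr11:96222260-96237882, a 15623 bp interval that peaked 13462 bp inside its body. At position 4, Hoxa4 had 16.8-fold, Hoxb4 15.9-fold and Hoxd4 11.8-fold, while Hoxc4 had 4.91-fold (−log10 q 27.1) in chr15:102942211-102944201, an interval of 1991 bp with 9 summits that peaked 227 bp inside the gene. Hoxc4 was the only one of the 12 genes of positions 1 to 4 with a strongest interval under 5-fold. Over all clusters 5 Hox genes were under 5-fold, and the other 4 were Hoxa13, Hoxb13, Hoxc12 and Hoxd13.

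Long annotations and shared intervals set some gene values above the TSS values. At 12 Hox genes the strongest interval was over 1.5 times the highest TSS summit. Hoxc5 is annotated over 49984 bp because 1 transcript starts near Hoxc10, and it took in 23 intervals, while its canonical transcript is 3615 bp long. Its ratio was 2.89, that of Hoxb8 4.44, of Hoxb3 4.09 and of Hoxa9 3.53. At 18 Hox genes the strongest summit lay within 1 kb of the canonical TSS, and at 21 within 1 kb of any annotated TSS. Near the canonical TSS, the highest summit lay downstream at 25 Hox genes and upstream at 14. Its median distance was 264 bp, against 84.0 bp over all protein-coding genes with such a summit. Apart from this distance, these counts were not made over all protein-coding genes, so they are not shown to be particular to Hox genes.

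Hox promoters are rich in CpG dinucleotides, which are otherwise depleted from the genome. The ratio of observed to expected CpG from 250 bases before to 50 after the canonical TSS had a median of 0.742 over Hox genes and 0.517 over all protein-coding genes. Genes with a ratio of at least 0.528, the lower quartile of the Hox genes, were taken as CpG-rich, which gave 10685 genes. Of these 98.5% had an interval, 96.1% reached 5-fold, 91.9% reached 10-fold and 81.8% reached 20-fold, with a median of 39.2-fold. The 29 Hox genes at or above that ratio had a median of 16.8-fold, and 21 (72.4%) reached 10-fold and 9 (31.0%) reached 20-fold. No Hox gene exceeded the median of the CpG-rich genes, whereas 12 exceeded the median of all protein-coding genes.

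**Figure D3:**
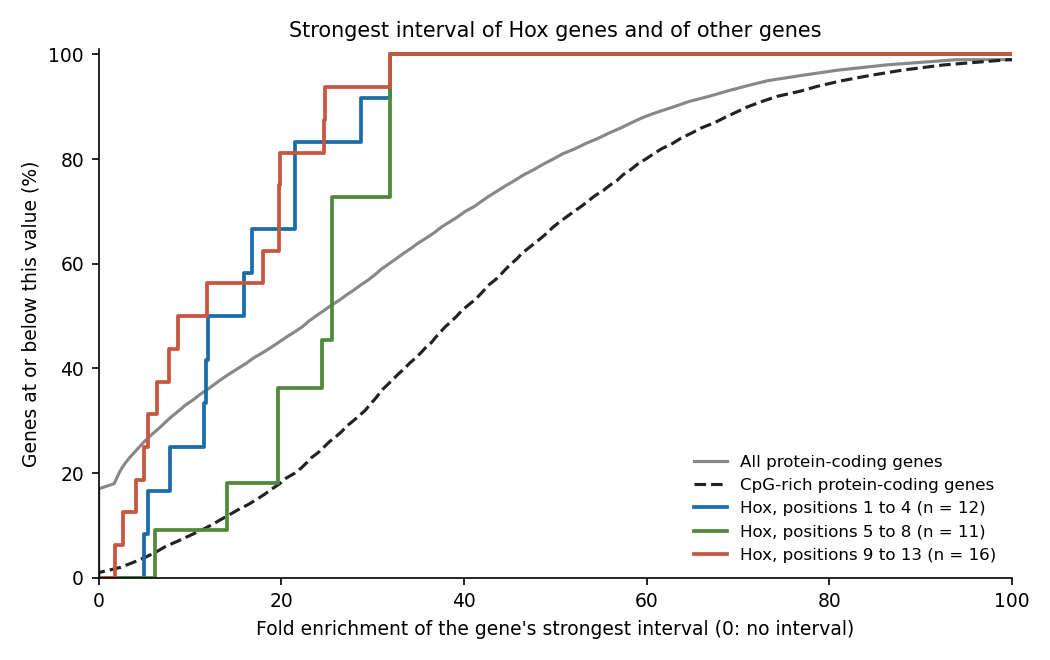
Cumulative share of genes (y axis, %) by the fold enrichment of their strongest interval (x axis) for Hox genes by position group, all protein-coding genes and CpG-rich protein-coding genes; the x axis ends at 100. The Hox curves reach their top by 31.9-fold, and positions 9 to 13 have the lowest median, 10.3-fold. Within that group the median is 19.9-fold at positions 9 and 10 and 5.43-fold at positions 11 to 13.

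At the canonical TSS, 33 of 39 Hox genes lay under the median of all protein-coding genes in the same bin of CpG ratio (bins of 0.1), and 22 lay under the 25th percentile. Over all protein-coding genes the CpG ratio and the TSS summit had a Spearman correlation of 0.691 (n = 21757 genes), and over the Hox genes of 0.192 (n = 39). These are descriptions across genes, which share libraries and, within a cluster, intervals. The 20 Hox genes at or above their median CpG ratio had a median TSS summit of 12.6-fold, and the 19 below it 8.12-fold. Hoxa13 and Hoxd13 combined ratios of 0.950 and 0.958 with 4.12 and 4.91-fold, while Hoxd8 combined a ratio of 0.400 with 24.5-fold.

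**Figure D4:**
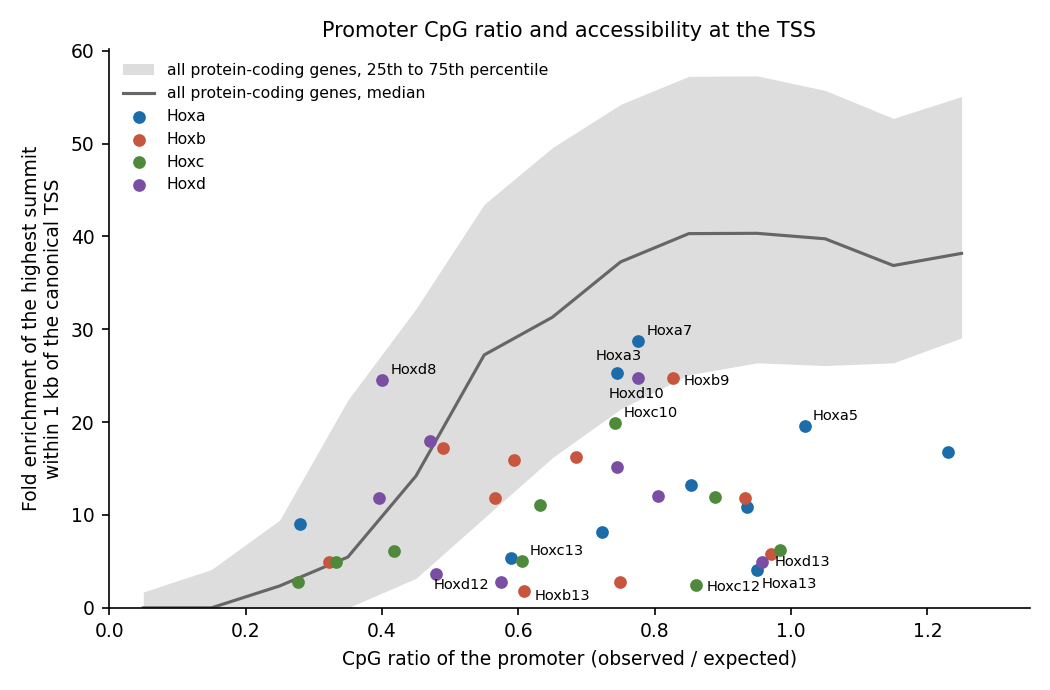
Promoter CpG ratio (x axis) against the fold enrichment of the highest summit within 1 kb of the canonical TSS (y axis) for Hox genes, coloured by cluster, with 1 gene not drawn. The grey line and band give the median and the 25th to 75th percentile of all protein-coding genes in bins of 0.1, and most Hox genes lie below the line.

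For strong promoters and for the position 13 genes, the 120 bases before the canonical TSS are given on the strand of the gene, with CpG dinucleotides in capitals. The first pair belong to strong promoters of Hoxa and Hoxd.
Hoxa7, chr6:52194486-52194605, minus strand: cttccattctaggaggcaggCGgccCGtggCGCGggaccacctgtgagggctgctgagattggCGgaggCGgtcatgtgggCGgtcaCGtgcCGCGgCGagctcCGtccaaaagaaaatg
Hoxd10, chr2:74522110-74522229, plus strand: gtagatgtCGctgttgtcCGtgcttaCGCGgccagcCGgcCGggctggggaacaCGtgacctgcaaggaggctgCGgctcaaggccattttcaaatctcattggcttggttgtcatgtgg
The next 4 belong to the position 13 gene of each cluster.
Hoxa13, chr6:52237823-52237942, minus strand: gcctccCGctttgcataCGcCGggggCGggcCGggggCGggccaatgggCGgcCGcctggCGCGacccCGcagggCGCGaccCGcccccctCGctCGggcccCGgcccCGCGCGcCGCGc
Hoxb13, chr11:96084986-96085105, plus strand: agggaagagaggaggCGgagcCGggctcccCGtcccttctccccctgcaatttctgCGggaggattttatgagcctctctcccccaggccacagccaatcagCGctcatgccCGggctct
Hoxc13, chr15:102829418-102829537, plus strand: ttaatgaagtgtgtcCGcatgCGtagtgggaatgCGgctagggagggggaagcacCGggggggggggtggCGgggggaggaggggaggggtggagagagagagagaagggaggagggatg
Hoxd13, chr2:74498534-74498653, plus strand: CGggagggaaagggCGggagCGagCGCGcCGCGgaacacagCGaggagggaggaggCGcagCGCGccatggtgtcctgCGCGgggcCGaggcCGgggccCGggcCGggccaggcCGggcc
These windows held 12 CpG dinucleotides at Hoxa7 and 8 at Hoxd10, and 22, 6, 5 and 18 in the position 13 group. Weak promoters thus included both the richest (Hoxa13 and Hoxd13) and the poorest (Hoxb13 and Hoxc13) of these windows.

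Motifs were sought on both strands in the 200 bases around the highest summit of each interval. The joint site of Hox proteins with their cofactor Pbx, written TGATNNAT, was in 6 of 94 windows at Hox genes (6.38%) and in 6.90% of all 279569 windows. By nearest canonical TSS, 5 of these 6 lay among 38 windows of positions 1 to 4, 1 among 27 of positions 5 to 8 and 0 among 29 of positions 9 to 13. Of these windows, 5 from Hoxa and Hoxb are shown, near genes of positions 1 to 4 and near Hoxa5. They are given on the strand of the match with the match in capitals.
Hoxa2, chr6:52138935-52138962, minus strand: tcagtgtggtTGATTAATctcccagctg
Hoxa4, chr6:52168979-52169006, plus strand: gggggatgcgTGATGGATgctgctagcc
Hoxa5, chr6:52181394-52181421, plus strand: gcacaatttaTGATGAATtatggaaatg
Hoxb1, chr11:96257531-96257558, plus strand: attgggtagaTGATGAATgaggaccaag
Hoxb2, chr11:96242731-96242758, minus strand: gtcgactcctTGATTGATgaagtttgaa
The intervals of these windows had 1.83-fold at Hoxa2, 16.8-fold at Hoxa4, 19.6-fold at Hoxa5, 7.79-fold at Hoxb1 and 11.8-fold at Hoxb2.

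The core of the CTCF motif, the zinc finger protein that anchors loop borders in these clusters, was found with at most 1 mismatch in 7 windows (7.45%), against 7.97% of all windows. Of these, 1 lay among the windows of positions 1 to 4, 2 of positions 5 to 8 and 4 of positions 9 to 13. The matches at the strongest 4 of these intervals, 3 in Hoxa and 1 in Hoxd, are printed because they lay beside genes of positions 7 to 12.
Hoxa7, chr6:52198780-52198808, minus strand: agaaaattCCAGGAGATGGCAgtgtggct
Hoxa10 upstream start, chr6:52217512-52217540, minus strand: cgcagccgCCACGAGATGGCGcactcccg
Hoxa11, chr6:52222468-52222496, minus strand: tgagcccgCCACTAAATGGCAcccccgcg
Hoxd12, chr2:74503513-74503541, minus strand: ccaaacgcCCAGGAGATGGCGagcgtgct
Their intervals had 31.9, 19.7, 8.12 and 7.73-fold, in the order printed. The homeodomain core TAATTA was in 3 windows (3.19%, against 4.0% of all windows), all in Hoxc, and the posterior Hox motif TCGTAAA in 2 (2.13%, against 0.262%), at Hoxa5 and Hoxc12. Direct repeats of the retinoic acid receptor half-site, AGGTCA with G also allowed at its first base and T at the third, 5 or 2 bases apart were in 0 of the 94 windows, and in 0.139% and 0.260% of all windows. A match is a description of the letters and not a bound site.

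The named microRNAs of the clusters belong to the miR-10, miR-196 and miR-615 families, and the miR-10 and miR-196 families are known to target Hox transcripts. Their mature sequences (RefSeq, entries on GRCm38.p6) were all found in the GRCm39 hairpins and are shown with the seed, bases 2 to 8, in capitals.
miR-10a-5p: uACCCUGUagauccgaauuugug
miR-10b-5p: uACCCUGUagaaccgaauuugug
miR-196a-5p: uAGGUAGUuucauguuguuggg
miR-196b-5p: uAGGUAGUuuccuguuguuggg
miR-615-3p: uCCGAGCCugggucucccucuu
miR-10a and miR-10b share a seed, and miR-196a and miR-196b share another. Mir10b (chr2:74556414-74556481) lay in an interval of 12.7-fold in the body of Hoxd3. Mir10a (chr11:96207991-96208100), between Hoxb5 and Hoxb4, lay in no interval, and the nearest summit, of 2.03-fold, was 171 bp from its centre. Mir196b (chr6:52207061-52207145) lay in an interval of 18.6-fold upstream of the canonical Hoxa9 start, Mir196a-1 (chr11:96155990-96156091) in one of 20.7-fold upstream of Hoxb9 and Mir196a-2 (chr15:102881785-102881869) in one of 3.40-fold between Hoxc10 and Hoxc9. Mir615 (chr15:102923342-102923433) lay in an interval of 11.1-fold in Hoxc5. A further annotated microRNA gene, Gm56188 (chr2:74531350-74531486) in Hoxd, lay in an interval of 18.0-fold. Since intervals are long, the summits nearest the named hairpins were lower, at 2.68-fold for Mir10b, 8.45-fold for Mir196b, 2.82-fold for Mir196a-1, 2.75-fold for Mir196a-2 and 6.15-fold for Mir615.

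Of 34 lncRNA genes annotated inside the clusters, 33 had an interval within 1 kb of a TSS and 26 reached 10-fold, with a median of 19.6-fold. Among all 32884 annotated lncRNA genes 57.5% had such an interval and 29.7% reached 10-fold. Hoxa11os, antisense to Hoxa11, had 8.12-fold, Haglr, divergent from Hoxd1, 12-fold, and Hotair, between Hoxc12 and Hoxc11, 6.42-fold. By cluster the lncRNA medians were 20.6-fold in Hoxa, 20.7-fold in Hoxb, 6.42-fold in Hoxc and 18.0-fold in Hoxd, with Hoxc lowest. For 29 of the 34 the strongest interval was one already counted for a Hox gene, so these values are not separate from those of the Hox genes. ATAC-seq has no strand, so an interval shared by a Hox gene and a divergent or antisense gene cannot be assigned to either.

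Within the clusters 28 of 122 intervals belonged to no Hox gene under the rule, and 2 of them reached 10-fold. One was chr11:96140282-96158315, 18034 bp long with 49 summits and 20.7-fold (−log10 q 293), whose highest summit lay 12094 bp upstream of Hoxb9 in the lncRNA gene Gm53. The other was chr2:74579588-74581194, with 12.6-fold (−log10 q 140), 13015 bp upstream of Hoxd1 and in Haglr. The wide open part of Hoxb therefore reached past Hoxb9 toward Hoxb13. Between it and the gap of 31.1 kb lay only intervals of 203 to 340 bp, with 1.96 to 4.26-fold.

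Genes next to the clusters fell into separate classes. Evx1 and Evx2, homeobox genes at the position 13 side of Hoxa and Hoxd, had 3.40 and 4.26-fold, near the values of Hoxa13 and Hoxd13. The other neighbours with an interval had 15.1 to 62.5-fold, among them Skap2 beside Hoxa (45.4-fold), Lnpk beyond Evx2 (43.9-fold) and Cbx5 beyond Hoxc4 (48.6-fold), while Calcoco2 had no interval.

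Lists of related genes were described in the same way, by the strongest interval. The 9 TALE homeobox cofactors of Hox proteins all reached 10-fold, with a median of 32.1-fold, including Pknox1 at 54.2-fold, Meis1 at 32.1-fold and Meis3, the lowest, at 10.8-fold. The 12 Polycomb genes also all reached 10-fold, with a median of 39.5-fold, including Ezh2 at 74.2-fold and Cbx2 lowest at 16.6-fold. The 7 trithorax and demethylase genes had a median of 47.1-fold, including Kmt2b at 92.6-fold and Kdm6a at 78.5-fold. The 9 Evx, Mnx and ParaHox genes, the homeobox genes closest to Hox by descent, had a median of 4.26-fold, and 2 reached 10-fold, Cdx1 at 26.6-fold and Gsx1 at 13.7-fold. Of 14 genes of kidney development 10 reached 10-fold, with a median of 20.3-fold, from Six2 at 6.55-fold to Sall1 at 45.8-fold. Of 16 regulators of other lineages 5 reached 10-fold, with a median of 5.17-fold, and Gata1 had no interval. The lists had 66.4% of all protein-coding genes at 10-fold as their background, and no test was made between them. Their median CpG ratios were 0.566 to 0.783, above the 0.528 taken as CpG-rich. Of the CpG-rich genes 91.9% reached 10-fold, with a median of 39.2-fold, near that of the Polycomb genes and above that of the TALE cofactors.

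**Figure D5:**
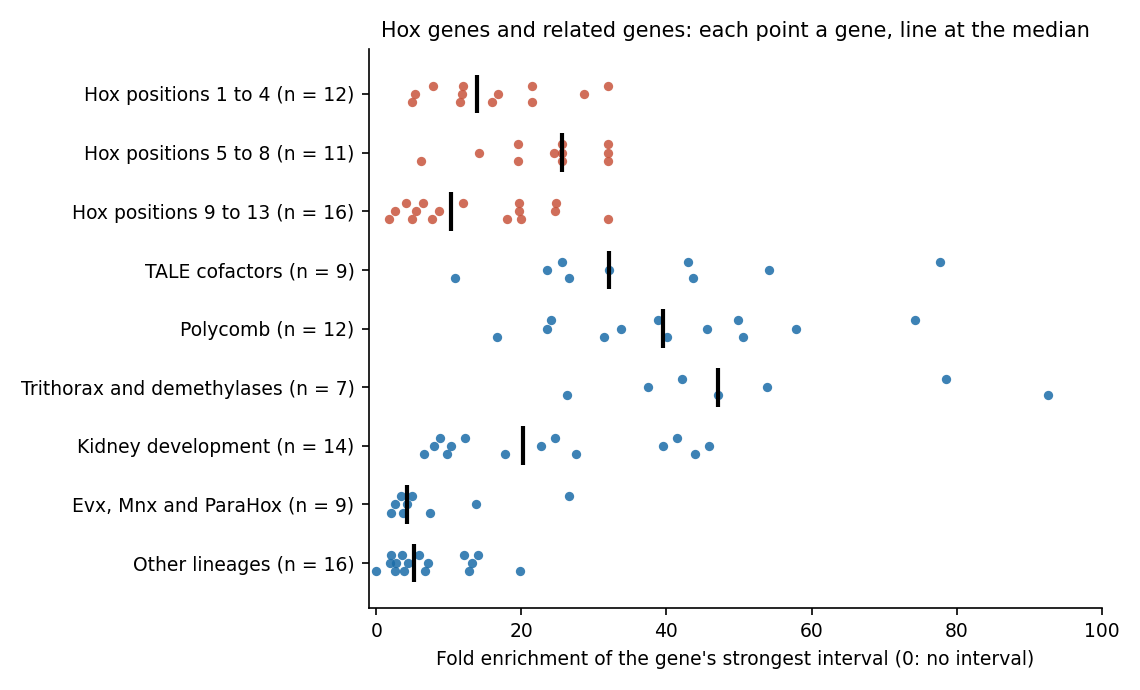
Fold enrichment of the strongest interval (x axis) for Hox genes by position group (red) and for 6 lists of related genes (blue), with a point per gene and a black line at the median. Hox genes span 1.77 to 31.9-fold, the other-lineage genes 0 to 19.8-fold and the Polycomb genes 16.6 to 74.2-fold.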

How the data were processed

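ATAC-seq peaks of mouse kidney cortex were analysed as deposited. The authors used fastp for trimming, Bowtie2 2.3.4.3 for alignment to mm39 (GRCm39) and MACS3 3.0.0 for peaks at q under 0.05 with several summits per peak, on unique, deduplicated reads. Blacklisted and non-standard sequence was dropped with BEDTools 2.29.1. The deposited fold enrichment is a linear ratio over background, and the deposited −log10 q is the caller's own. By its peak names the call pooled libraries, which it does not name, so depth per library is unknown, there is no replicate error and nothing was tested. Close summits merged by the caller lengthen intervals. The sign of the caller's shift setting is unclear in the methods, which bears on summit positions.

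The 749750 summits formed 279569 intervals, each described by its highest summit by q. Genes took intervals within 1 kb of any TSS or in the body (GENCODE M39), and the strongest by q. The canonical transcript is the one marked so in the annotation. Each Hox gene was named with its strongest value, except that 1 Hox gene and a few other items are not reported here. Full values were given for the highest and lowest gene of each cluster, genes under 5-fold and the 10 strongest intervals, and beside them the fixed lists, 2 neighbours on each side, non-coding genes and motifs. The members, lists and rules were chosen with earlier results of these data known, and TSS summits were added after the data were seen. Assignment and motif search were tested on simulated data, where all 200 genes and all 600 planted motifs were recovered. Python 3.11.15, numpy 2.4.6, pandas 2.3.3, scipy 1.17.1 and matplotlib 3.10.9 were used.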

Additional observations from a re-analysis of the deposited data

How the results depend on the processing

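Of 123 recomputed values under 12 settings, 113 stayed within 1.5 times the reported value and 10 did not. Many of the 113 could hardly move. The cuts on q and on fold enrichment drop weak intervals, so every median and the count of genes at 10-fold stayed identical. Choosing the strongest interval by fold enrichment changed no value either, and the spans of all transcripts gave the same coverage as the canonical spans. Requiring the highest summit of an interval to lie inside the window or gene body lowered the median over the Hox genes from 18.0 to 11.8-fold, that of Hoxb from 15.0 to 4.78-fold, below Hoxc at 6.42-fold, and that of positions 5 to 8 from 25.6 to 10.9-fold. That setting left Hoxb5, Hoxb6, Hoxb7 and Hoxb8 with no interval, counted as 0. Their highest TSS summits were 11.8, 17.2, 16.2 and 5.76-fold. Counting each interval once, for the Hox gene with the nearest TSS, gave 11.9-fold over the Hox genes and 12.2-fold at positions 5 to 8, and left Hoxb6 and Hoxb8 with no interval. The highest summit within 1 kb of the canonical TSS, a setting chosen after seeing the data, gave 11.8-fold over the Hox genes, 12-fold in Hoxd against 18.0-fold, and 11.8-fold at positions 5 to 8. The 94 distinct intervals became 41 at a fold enrichment of at least 5, and 53 within 1 kb of a TSS only. Under these settings intervals are shared less or fewer are counted by construction. The higher median of positions 5 to 8 over positions 1 to 4 was therefore not kept under 3 settings, whereas positions 9 to 13 had the lowest of the 3 medians under each setting. That group was not uniform. As reported, the median strongest interval was 19.9-fold at positions 9 and 10 and 5.43-fold at positions 11 to 13. Coverage of each cluster stayed within 1.5 times under q under 1e-05, a fold enrichment of at least 5, spans of all transcripts and spans widened by 20 kb. No paired analysis was possible because the peaks were called on pooled libraries, and for the same reason no replicate could be left out.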
